A study of Mus musculus with 2 samples.

Results

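The mouse genome holds a pair of genes for the microRNA miR-128. Mir128-1 lies in an intron of R3hdm1, which encodes a protein with an R3H nucleic acid-binding domain, and Mir128-2 lies in an intron of Arpp21, which encodes a phosphoprotein of forebrain neurons that is regulated by cyclic AMP. They were chosen by name, and both were among the 2202 microRNA genes counted, so the account covers 2 of 2202 genes. The RNA came from the left cerebral cortex of 10-day-old females of B6CASTF1/J, the first-generation hybrid of C57BL/6J and CAST/EiJ mice, as sold by The Jackson Laboratory. There was 1 group of 2 libraries, with no treatment and no comparison group. The labels number the females differently, so the libraries are called animal 1 and animal 2 after their replicate numbers, although the donor entry of both is the same. Every p-value below compares these 2 libraries, whose difference may be technical, and not conditions.

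A microRNA gene is transcribed as part of a longer RNA, folds into a hairpin and is cut by Drosha and Dicer into a 5p arm and a 3p arm. One arm is loaded into an Argonaute protein, and its seed (bases 2 to 8 from the 5′ end) pairs with messenger RNAs that are then repressed. miR-128 is enriched in brain neurons and is known for restraining neuronal excitability: mice that lack Mir128-2 become hyperactive and die of seizures. Earlier work on mice lacking either gene attributed most mature miR-128 of the adult forebrain to Mir128-2. The counts described here are per hairpin gene, with reads of both arms summed. Each table also has a row for reads that mapped to several places, separate from the gene rows; any further handling of these reads is unknown here.

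The sequences show which parts of the hairpins can tell the genes apart. Both are from RefSeq on GRCm38.p6, written 5′ to 3′ in RNA letters. Mir128-1 (ENSMUSG00000065520.2) occupies chr1:128202361-128202430 on the plus strand, and Mir128-2 (ENSMUSG00000065441.2) lies at chr9:112118636-112118711 on the minus strand. Capitals mark the longest run that the hairpins share.
Mir128-1 hairpin: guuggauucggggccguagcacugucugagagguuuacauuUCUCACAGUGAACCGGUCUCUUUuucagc
Mir128-2 hairpin: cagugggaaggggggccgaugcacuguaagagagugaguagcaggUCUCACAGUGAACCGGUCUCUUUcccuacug

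The mature arms are shown next because one is common to both genes and the other is not. Capitals mark the seed.
miR-128-1-5p, of Mir128-1: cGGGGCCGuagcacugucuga
miR-128-2-5p, of Mir128-2: gGGGGCCGaugcacuguaagaga
miR-128-3p, of both genes: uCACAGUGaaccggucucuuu

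The 3p arm, the one usually meant by miR-128, was identical in all 21 bases, so a read of exactly this arm fits both genes. The shared run was 23 bases long and held the whole 3p arm with 2 bases before it and 0 after it. Directly after the run, Mir128-1 continued with UU and Mir128-2 with CC. Directly before it, Mir128-1 had UU and Mir128-2 had GG. The 5p arms were 21 and 23 bases long, had the same seed GGGGCCG and were identical in 16 of 23 aligned positions, with no common run above 7 bases. Over the whole hairpins of 70 and 76 bases, 55 of 77 aligned positions were identical, or 71.4%. Among 1005 hairpins of the RefSeq table, each 5p arm was found in 1 hairpin and the 3p arm in 2.

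**Figure D1:**
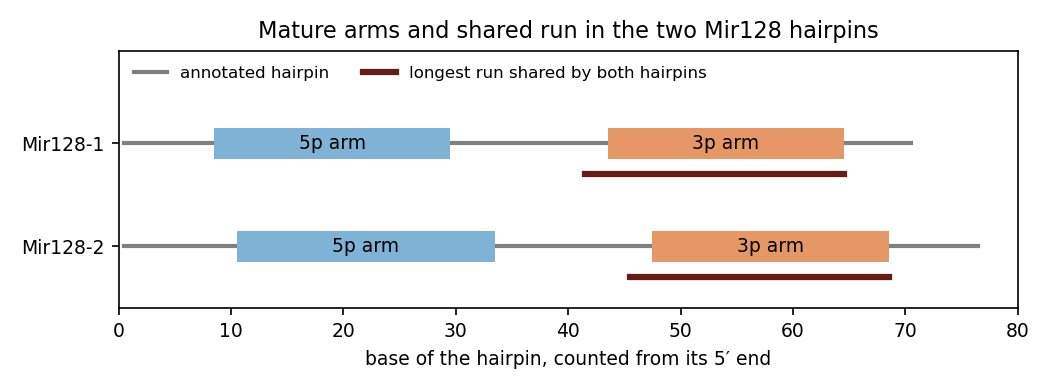
Position of the mature arms in the Mir128-1 and Mir128-2 hairpins, in bases from the 5′ end of each hairpin; the grey line is the annotated hairpin, boxes are the arms, and the dark bar is the longest run shared by both. The shared run covers bases 42 to 64 of Mir128-1 and 46 to 68 of Mir128-2 and ends where the 3p arm ends, while the 5p arms lie outside it.

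In the M21 annotation of mm10, both hairpins lie on the strand of their host gene. R3hdm1 spans 134436 bases, from 128103301 to 128237736 of chromosome 1, and 2 of its 16 annotated transcripts extend over Mir128-1, which is intronic in both. In the longest coding transcript of these, Mir128-1 is in intron 19 of 26, a stretch of 14107 bases, and begins 5263 bases after the upstream exon. Arpp21 spans 170848 bases, from 112065091 to 112235938 of chromosome 9, and 9 of its 31 annotated transcripts extend over Mir128-2, which is intronic in all 9. In the longest coding transcript of these, Mir128-2 is in intron 19 of 20, which is 51873 bases long, and begins 471 bases after the upstream exon. Messenger RNA of the hosts was not measured in these libraries.

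Both genes were abundant, and Mir128-1 stood above Mir128-2 in each animal. Levels are given in CPM, a gene's reads scaled to a common library size, over 3806078 counted reads for animal 1 and 2602935 for animal 2. Mir128-1 had 58204 reads in animal 1 and 44604 in animal 2, which are 15292 CPM (95% interval 15169 to 15416) and 17136 CPM (16979 to 17294). Mir128-2 had 21435 and 15800 reads, or 5632 CPM (5557 to 5707) and 6070 CPM (5976 to 6165). The ranges of the genes did not overlap, and for each gene animal 2 was the higher library on this scale. The means were 16214 CPM ± 1304 (SD, n = 2) for Mir128-1 and 5851 CPM ± 310 for Mir128-2, and each SD rests on a single difference. The intervals are exact Clopper-Pearson intervals and cover counting error only.

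Among all 2202 genes, Mir128-1 ranked 17 in animal 1 and 15 in animal 2, and Mir128-2 ranked 35 and 33. Counted per base of annotated hairpin, the mean levels were 232 CPM per base ± 18.6 for Mir128-1 and 77.0 ± 4.08 for Mir128-2 (n = 2), at ranks 14 and 32. The per-base values are a rescaling only, since reads of mature arms need not increase with the length of the hairpin. Both genes reached 10 CPM in both libraries, a level that 13.9% of all genes reached. On the strand opposite each hairpin there were 0 reads in both libraries, which allows up to 3 reads, or a level of 0.788 CPM for animal 1 and of 1.15 CPM for animal 2.

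Reads that mapped to several places formed a row of their own in each library, with 4850682 reads in animal 1 and 3454278 in animal 2. These were 42.7% and 40.4% of all reads, or 1.27 and 1.33 times the number counted to genes. How many of them are miR-128-3p cannot be read from the files, so the levels above are levels of the reads that were assigned to a gene. Any miR-128-3p reads in that row are missing from these levels, which may understate miR-128. The row is also left out of the library sizes, so the levels and ranks may instead overstate its share. With the row added to the library sizes, the means were 7044 CPM for Mir128-1 and 2542 CPM for Mir128-2. The 3p and 5p arms of a gene also cannot be told apart in these counts.

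Within the RefSeq table the members could be set beside other genes with shared arms. Of the 2202 counted genes, 973 matched a RefSeq hairpin and 959 had a listed mature arm. In 54 of these, including both Mir128 genes, 1 arm also occurred in another hairpin and 1 did not. Mir128-1 and Mir128-2 had the highest and the next highest mean CPM of these 54, above Mir181b-2 (3637 and 3957 CPM in animals 1 and 2), Mir138-1 (2865 and 2472 CPM) and Mirlet7f-2 (1610 and 1466 CPM). In this class 32 genes reached 10 CPM in each library, and the median over all 54 was 31.1 CPM. Where no arm was shared, the median was 1.03 CPM over 865 genes, and 226 reached 10 CPM. Where all listed arms were shared, the median was 0 CPM over 40 genes, and 6 reached 10 CPM. Over the genes that reached 10 CPM the order differed, with medians of 113 CPM for 1 shared arm, 357 CPM for no shared arm and 273 CPM for all arms shared. The classes see only the hairpins and arms that the RefSeq table lists, so they can miss a shared arm. Mir125b-1, at a mean of 2683 CPM, was classed with no shared arm although its copy Mir125b-2 was among the counted genes. The order and the medians of the classes hold for this table only. These classes are described without a test, and their genes differ in much besides shared arms.

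**Figure D2:**
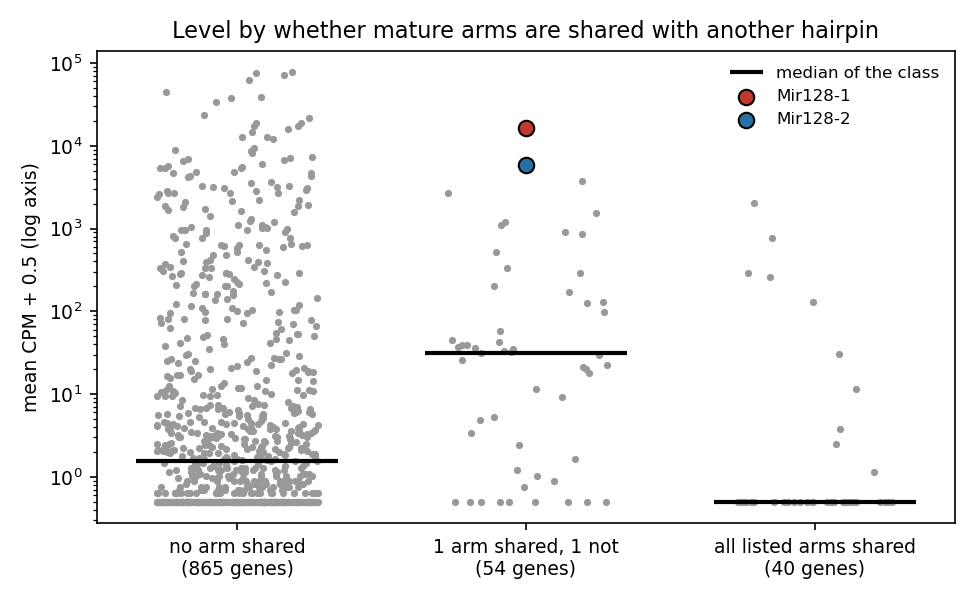
Mean CPM over both libraries plus 0.5 (log axis) for 959 microRNA genes, each a point, grouped by whether their mature arms occur in another RefSeq hairpin; lines are class medians. Mir128-1 at 16214 CPM and Mir128-2 at 5851 CPM are the highest points among the 54 genes with 1 shared and 1 unshared arm, whose median is 31.1 CPM.

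The proportion of the Mir128 genes needs no scaling, because both counts come from the same library. Animal 1 had 2.72 reads of Mir128-1 for each read of Mir128-2 (95% interval 2.67 to 2.76). Animal 2 had 2.82 (2.77 to 2.87), and the mean was 2.77 ± 0.0761 (SD, n = 2). Per base of hairpin, a rescaling by annotated length only, the ratio was 2.95 in animal 1 and 3.07 in animal 2. Mir128-1 thus held 73.1% of the assigned reads of the pair in animal 1 (72.8 to 73.4) and 73.8% in animal 2 (73.5 to 74.2). A read of exactly the 3p arm fits both genes, as does one that also holds the 2 shared bases before it. Only a 3p read that reaches beyond the shared run can be placed by its bases. This split therefore need not be the share of miR-128-3p that each gene makes, and the intervals do not cover that limit. Both animals showed the same order, and the counting intervals of the ratio did not overlap. The ratio was 1.04-fold higher in animal 2, a log2 difference of -0.06 for animal 1 against animal 2, with an adjusted p of 0.00359 by two-sided Fisher's exact test over 24 pairs of gene copies. With counts of this depth, a difference of this size passed a test that covers counting noise alone.

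Other gene copies gave the scale for that difference. The 24 pairs are all pairs of genes whose symbols differ in the copy number after the hyphen and that had at least 10 reads each over both libraries. They come from 22 stems, and pairs of Mir9 genes share members. The ratio differed between the libraries in 16 of 24 pairs, or 66.7%, so a call was the common outcome. The median absolute change of the log2 ratio over the pairs was 0.65. The change of the Mir128 pair was the third smallest of the 24, after Mir30c (0.02) and Mir138 (0.04). By summed level the Mir128 pair was the most abundant. The 5 most abundant pairs, the Mir128 pair among them, all changed by 0.04 to 0.18, so a small change was not particular to it.

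The next pairs by summed level differed in how evenly their reads were divided. Mir181b-2 had 13844 and 10300 reads in animals 1 and 2 against 130 and 90 for Mir181b-1, a log2 ratio of Mir181b-1 over Mir181b-2 near -6.73 in animal 1 and -6.83 in animal 2. Mir138-1, of a microRNA that limits dendritic spine size, had 10904 and 6434 reads against 4387 and 2668 for Mir138-2, log2 ratios of 1.31 and 1.27. These were the values closest to those of the Mir128 pair, 1.44 and 1.50, among the 5 most abundant pairs. Mir125b-1 over Mir125b-2 stood at 2.29 and 2.47, and its change passed the test (adjusted p = 0.00359, Fisher's exact test). Mirlet7c-1 over Mirlet7c-2 stood at -1.93 and -2.04, a change that missed the threshold by the same test (adjusted p = 0.0682), as did those of Mir138 (0.379) and Mir181b (0.722). Copies of a microRNA share sequence, so every ratio of this kind covers assigned reads only.

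**Figure D3:**
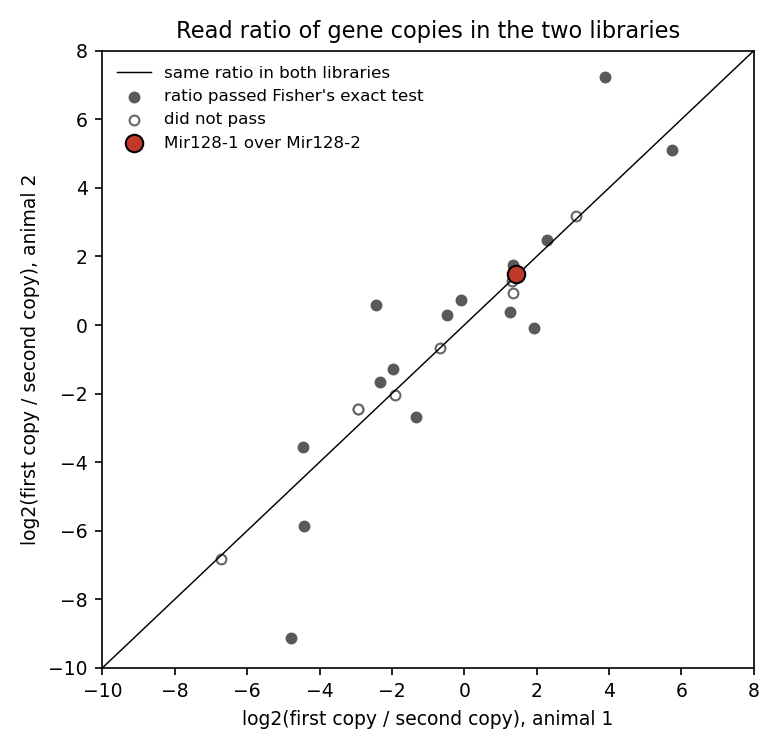
Log2 ratio of reads of the first over the second gene copy in animal 1 (x axis) and animal 2 (y axis) for 24 pairs of microRNA gene copies; filled points passed Fisher's exact test for a difference between libraries. The Mir128 pair, at 1.44 and 1.50, lies close to the line of equal ratios, while the ratios of other pairs differ between libraries by up to 4.34 log2 units.

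The level of each gene was then compared between the libraries after TMM scaling, which sets library sizes by the bulk of genes. Of 531 genes with at least 10 reads, 274 differed beyond counting noise by the exact binomial test, or 51.6%, with 26.9% higher in animal 1 and 24.7% higher in animal 2. Both Mir128 genes were higher in animal 2 on this scale, an order that turned round for Mir128-2 when all reads of a library were the denominator. Mir128-1 had a log2 ratio (animal 1 over animal 2) of -0.37, with a 95% interval of -0.39 to -0.35, a 1.29-fold difference whose adjusted p has a log10 of -351 by the exact binomial test. Mir128-2 had a log2 ratio of -0.31 (-0.34 to -0.28), a 1.24-fold difference (adjusted p = 5.67e-92, exact binomial test). Both genes kept this direction with library totals only (-0.16 and -0.11), and with all reads of a library as the denominator Mir128-2 was the higher in animal 1 (1889 against 1848 on the CPM scale) while Mir128-1 stayed the higher in animal 2 (5128 against 5216).

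The other genes gave the scale for these differences. The median absolute log2 ratio of the 531 tested genes was 0.51, and 38.6% of them had a smaller absolute ratio than Mir128-1 and 33.5% a smaller one than Mir128-2. The median log2 ratio of the tested genes was 0.04 after TMM and 0.25 with library totals only. Relative to that median, Mir128-1 stood at -0.41 and Mir128-2 at -0.36. These values are the same on both scales by construction, because a change of library sizes shifts every log2 ratio by the same amount. Among the 32 other genes at least as abundant as Mir128-2, 20 were higher in animal 2, 9 were higher in animal 1 and 3 did not pass, with a median log2 ratio of -0.27. Among the 15 others at least as abundant as Mir128-1, 11 were higher in animal 2 and 4 in animal 1, with a median of -0.32. When the spread between the animals over all genes was allowed for, with a common coefficient of variation of 38.0%, neither Mir128 gene passed (edgeR's exact test, p = 0.642 for Mir128-1 and 0.694 for Mir128-2, adjusted p = 1 for both). That spread was estimated from the same 2 libraries, and only Mir301 of the 531 genes passed, so this test says little about either gene.

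**Figure D4:**
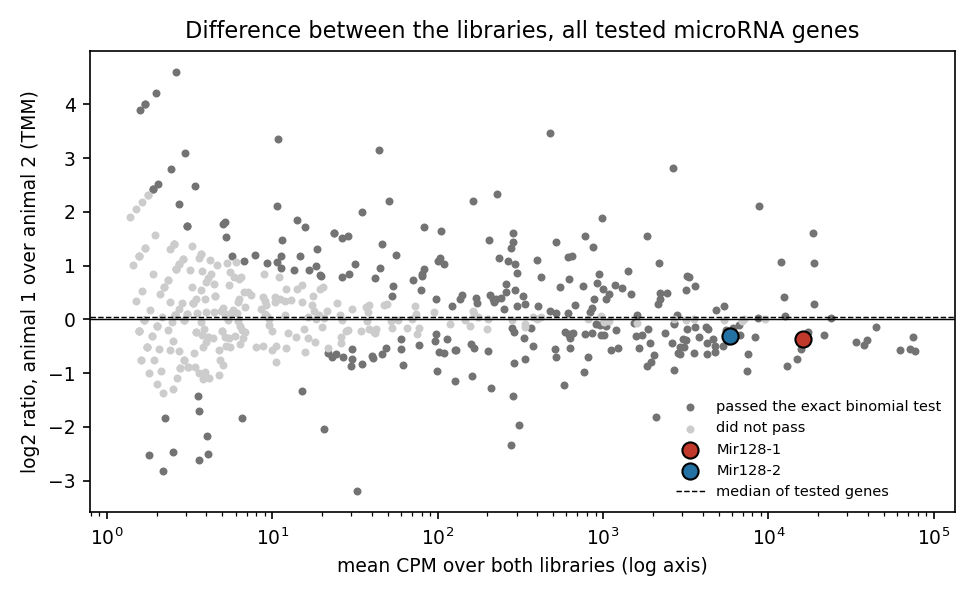
Log2 ratio of animal 1 over animal 2 after TMM scaling against mean CPM (log axis) for the 531 tested microRNA genes, each a point; dark points passed the exact binomial test. Mir128-1 (-0.37) and Mir128-2 (-0.31) lie below 0 and inside the spread of genes of like abundance.

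Genes with the most similar levels were found by Euclidean distance of log2(CPM + 0.5) over the 2 libraries, a measure that mostly reflects abundance. The 4 genes nearest to Mir128-1 were Mir652 (16161 and 18222 CPM in animals 1 and 2, distance 0.12), Mir382 (13902 and 17751 CPM, 0.15), Mir433 (17106 and 17545 CPM, 0.17) and Mirlet7d (12159 and 17578 CPM, 0.33). The 4 nearest to Mir128-2 were Mir181d (5307 and 6116 CPM, 0.09), Mir411 (6159 and 5990 CPM, 0.13), Mir379 (5502 and 5519 CPM, 0.14) and Mir674 (4791 and 5879 CPM, 0.24). All 8 passed the exact binomial test after TMM with the higher level in animal 2, although Mir411 was lower there in plain CPM. They were picked by their levels in these same libraries, so their like direction follows in part from the choice and is no separate result. Over all tested genes, 24.7% were higher in animal 2. The distance between the Mir128 genes themselves was 2.08.

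Among neuron-enriched microRNAs the Mir128 genes were prominent. The list of 26 genes, drawn up with earlier results of these libraries known, includes both. Mir128-1 had the highest mean CPM of the list and Mir128-2 the fourth highest. Between them stood Mir137, which acts in neuronal maturation, at 9278 and 7888 CPM in animals 1 and 2, and Mir132, which is induced by neuronal activity, at 6522 and 6973 CPM. Mir132 was above Mir128-2 in both animals. Mir138-1 (2865 and 2472 CPM) and Mir134 (1527 and 1640 CPM), which acts in dendrites, followed. The Mir128 genes together held 45.2% of the list's assigned reads in animal 1 and 50.5% in animal 2. These ranks and shares cover assigned reads only, and microRNAs whose arms are identical between copies may be understated in them. Mir9, a microRNA of neural progenitors and neurons whose listed arms all recur in other RefSeq hairpins, had 131, 15 and 333 assigned reads in its 3 copies in animal 1 and 68, 7 and 438 in animal 2.

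The rest of the list covered a wide range. Of the 24 other genes 19 reached 10 CPM in both libraries, their median level was 145 CPM, and all 24 had a read. Of the 22 tested, 6 were higher in animal 1, 5 were higher in animal 2 and 11 did not pass the exact binomial test after TMM. Over all 531 tested genes, 26.9% were higher in animal 1 and 24.7% in animal 2, so the list was near that share. The median log2 ratio of the 22 genes was 0.02 and their median absolute ratio 0.28, against 0.04 and 0.51 over all tested genes. Mir132 (-0.30) and Mir134 (-0.31) had log2 ratios close to that of Mir128-2, and Mir137 stood at 0.03. Mir124a, a defining microRNA of neurons, had few assigned reads in its 3 copies, with 13, 7 and 4 in animal 1 and 7, 1 and 2 in animal 2. Copies of a microRNA share sequence, so these counts may understate Mir124a.

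**Figure D5:**
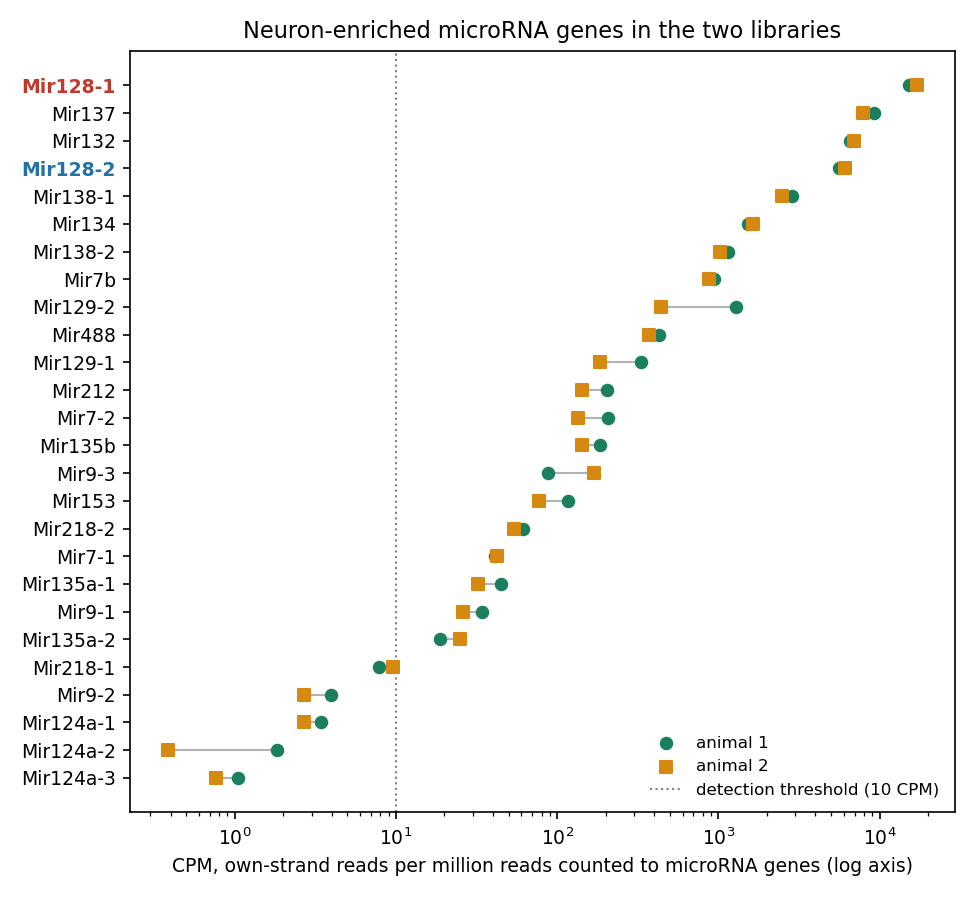
CPM (log axis) of 26 neuron-enriched microRNA genes in animal 1 (circles) and animal 2 (squares), ordered by mean; the dotted line is the detection threshold of 10 CPM. Mir128-1 is at the top with 15292 and 17136 CPM, and Mir128-2 is the fourth with 5632 and 6070 CPM.

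Many but not all markers of other cell types differed between the libraries, some by more than the Mir128 genes. The endothelial gene Mir126a stood at 28913 and 8265 CPM in animals 1 and 2. The summed oligodendrocyte genes Mir219a-2 and Mir338 stood at 1167 and 1639 CPM, the mural genes Mir143 and Mir145a at 3145 and 4524 CPM, and the blood and microglial genes Mir142, Mir223 and Mir150 at 784 and 1100 CPM. The erythroid genes Mir451a, Mir144 and Mir486 were at 78.0 and 46.5 CPM, Mir204 of the choroid plexus at 865 and 751 CPM, and Mir122 of liver at 42.6 and 41.9 CPM. In skeletal muscle's list, Mir206 gave all the reads, 79 and 73, and the other 4 genes had 0. These levels are in plain CPM. After TMM, Mir204, Mir122, Mir223 and Mir486 did not pass the exact binomial test, while the other tested markers did. Over all tested genes, 51.6% passed that test. The erythroid sum joins log2 ratios of 1.31 for Mir451a, 1.17 for Mir144 and -0.20 for Mir486. The mural sum joins -0.63 for Mir143 and -1.96 for Mir145a. In the blood and microglial sum, Mir150 alone stood at 672 and 955 CPM in animals 1 and 2. The part of these cell types in the levels of the Mir128 genes was not tested, and in whole tissue fewer cells of a type and less RNA per cell cannot be told apart.

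Genes whose arms resemble the miR-128 seed were far lower. Of 1738 mature arms in the RefSeq table, the miR-128-3p seed CACAGUG began at base 2 in the 2 entries of miR-128-3p alone, and it occurred elsewhere in the first 10 bases of 4 others, so 0.345% of arms held it there. The 5p seed GGGGCCG occurred in the first 10 bases of the miR-128 5p arms and of no other, or 0.115% of arms. The miR-27 family, known from blood vessels and fat cells, holds CACAGUG 1 base later, from base 3 to base 9. Its arms are shown with those 7 bases in capitals for comparison with miR-128-3p.
miR-27a-3p: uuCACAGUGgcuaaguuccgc
miR-27b-3p: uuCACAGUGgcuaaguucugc

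Mir27b had 4019 and 2302 reads, which are 1056 and 884 CPM, and did not pass the exact binomial test between the libraries (log2 ratio 0.05, adjusted p = 0.258). Mir27a had 267 and 221 reads, or 70.2 and 84.9 CPM, and was higher in animal 2 (log2 ratio -0.48, adjusted p = 7.86e-04, exact binomial test). Of the other matches, Mir216a had 10 and 13 reads and Mir497b 1 and 0. In both libraries Mir128-1 and Mir128-2 each stood above all 4 of these genes.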

How the data were processed

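Short RNA of the left cortex was sequenced in 1 library per animal with a multiplexed microRNA protocol, per the labels. The authors deposited whole-number read counts per microRNA gene for each library, and the notes deposited beside them name mm10 and GENCODE M21; aligner and counter: not given in the sources used here. The own-strand column was used. In each deposited table, 4 rows of counts name no gene. They were left out of library sizes, and hold 66.5% of reads in animal 1 and 69.6% in animal 2. All 2202 gene identifiers matched M21.

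CPM was computed over reads counted to genes. TMM factors (1.07 and 0.932) and the common coefficient of variation came from edgeR 4.0.16 in R 4.3.3. Genes with at least 10 counts were compared by an exact conditional binomial test, and copy pairs by Fisher's exact test, both two-sided with Benjamini-Hochberg adjustment at 0.05, in Python 3.11.15 with scipy 1.17.1. Log2 ratios had 0.5 added to each count. DESeq2 1.42.0 gave alternative size factors. Both tests were tested on simulated counts that held counting noise alone, so the simulation did not cover spread between animals. RefSeq sequences were matched by symbol (968 genes) or synonym (5).

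The members and lists were chosen with earlier results of these data known. Named genes are both members, the 4 nearest genes to each, holders of their seed bases, up to 6 neuron-enriched genes, the 5 most abundant copy pairs and cell type markers; Mir124a, Mir9, Mir30c, Mirlet7f-2 and Mir301 were added after their values were seen.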

Additional observations from a re-analysis of the deposited data

How the results depend on the processing

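Of 36 alternative values, 27 were classed as the same, and no log2 ratio of the Mir128 genes changed sign. For log2 ratios and the change of the pair's ratio, this meant the same direction and side of the threshold. For levels and the pair's ratio, it meant a move of less than 1 SD. For counts of calls, it meant a count within a fixed range around the main count, whatever the direction of the calls. Several of the 27 could not have come out otherwise. Leaving out either of 2 animals always moves a mean by less than 1 SD. A count minimum leaves the log2 ratios of the Mir128 genes unchanged. The unstranded column holds the same counts for the Mir128 genes, so their ratio was the same there. The order of the animals did turn for Mir128-2 with all reads as the denominator (1889 in animal 1 against 1848 in animal 2). With edgeR's exact test and the common dispersion between the animals, 1 gene (Mir301) passed against 274, and 33 had an unadjusted p under 0.05. Mir128-1 (log2 ratio -0.37) and Mir128-2 (-0.31) did not pass there, where the spread comes from the same 2 libraries. Across the other scalings, count minimums and the unstranded column, Mir128-1 ran from -0.42 to -0.16 and Mir128-2 from -0.36 to -0.11, and both passed each time. With library totals only, 67.5% of the calls over all genes were higher in animal 1, against 52.2% with TMM and 46.7% with DESeq2 size factors, where the majority lay in animal 2.

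Mean levels depend on the denominator by construction. Over all reads, Mir128-1 stood at 5172 CPM and Mir128-2 at 1868, and over counted plus multiply mapped reads at 7044 and 2542. In the unstranded column, whose total is smaller, Mir128-2 stood at 6297 CPM. There 10 of 20 copy pairs passed, against 16 of 24. Leaving out each animal gave 15292 to 17136 CPM for Mir128-1, 5632 to 6070 CPM for Mir128-2 and 2.72 to 2.82 for their ratio. No paired analysis was possible because the samples form a single group. The counting error of the Mir128 levels is small beside the effect of the denominator, and the spread rests on 2 animals. How many Mir128 reads are missing because they mapped to several places could not be measured.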
